A study of Rattus norvegicus with 60 samples.

Results

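A group of 10 genes of the endoplasmic reticulum stress response were followed through the frontal cortex of rats given a single oral dose of a pyrethroid insecticide. The genes were Hspa5, Hsp90b1, Ddit3, Atf4, Xbp1, Herpud1, Pdia4, Calr, Atf3 and Trib3. They were chosen by name, with earlier results of these data known. Every probe set whose array annotation gave 1 of these symbols alone was taken, which gave 12 of the 31042 probe sets in the table and 10 of the 14217 genes named there. Trib3 had 3 probe sets and each other gene had 1.

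The animals were adult male Long-Evans rats, labelled as 62 to 64 days old, that received corn oil alone or a pyrethroid in corn oil by gavage, and RNA was taken from the frontal cortex 6 h later. Vehicle was given to 12 rats. Permethrin was given at 1, 10 and 100 mg/kg and deltamethrin at 0.3, 1 and 3 mg/kg, with 8 rats in each dose group. Each rat gave 1 array, 60 in all, and RNA from different rats was not pooled. Values were log2 RMA expression summaries, so that a difference of 1 is a doubling, and differences between groups were taken within 1 probe set. The signal of different probe sets depends on their affinity, so it is given only as a place among all probe sets and not as relative abundance. Cortex is a mixture of cell types, so a lower level from fewer cells of a type and one from less RNA per cell cannot be told apart.

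The endoplasmic reticulum folds secreted and membrane proteins with the help of chaperones. When unfolded proteins accumulate, the sensors PERK, IRE1 and ATF6 start the unfolded protein response. IRE1 splices the Xbp1 message, cleaved ATF6 enters the nucleus, and PERK phosphorylates eIF2α, which slows translation while favouring that of Atf4. ATF6 and XBP1 raise chaperones and degradation factors, and ATF4 raises Ddit3, Atf3 and Trib3. RNA levels on an array do not show Xbp1 splicing or the cleavage of ATF6.

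Short promoter elements are known to tie genes to this response, and the matches are shown because some members hold them and others do not. The windows were those of RefSeq (GRCr8), 250 bases before to 50 after the start of each gene, and 9 of the 10 members had one. Atf3 was the other. The element called ERSE (CCAAT, then 9 bases, then CCACG, on either strand) was found in 4 of the 9 members, against 22 of all 33469 promoters (0.0657%). These were Hspa5, Hsp90b1, Xbp1 and Calr. In the lines that follow, each match is in capitals within its flanks, read 5′ to 3′ on the strand of the gene.
Hspa5, chr3:38452953-38453011, plus strand: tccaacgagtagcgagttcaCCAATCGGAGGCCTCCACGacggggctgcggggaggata
Xbp1, chr14:84604538-84604596, plus strand: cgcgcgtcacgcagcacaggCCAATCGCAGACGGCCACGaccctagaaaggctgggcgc
Hsp90b1, chr7:23012431-23012489, minus strand: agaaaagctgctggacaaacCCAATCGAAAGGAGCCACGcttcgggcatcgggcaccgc
Hsp90b1, chr7:23012327-23012385, minus strand, match in reverse: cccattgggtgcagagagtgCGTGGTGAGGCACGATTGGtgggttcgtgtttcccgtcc
Calr, chr19:40213117-40213173, plus strand, match in reverse: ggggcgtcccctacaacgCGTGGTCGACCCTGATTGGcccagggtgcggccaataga
The match lay 43 to 25 bases before the start in Hspa5 and 65 to 47 bases before it in Xbp1. The shorter ERSE-II (ATTGG, 1 base, CCACG) was found in Herpud1 alone among the members, against 17 of all promoters (0.0508%), 124 to 114 bases before the start.
Herpud1, chr19:10614801-10614851, minus strand: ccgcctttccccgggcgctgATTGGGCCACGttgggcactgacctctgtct
The ATF4 composite element (TGATGNAA) was found in reverse in Herpud1 and Trib3, against 1332 promoters (3.98%).
Herpud1, chr19:10614864-10614911, minus strand: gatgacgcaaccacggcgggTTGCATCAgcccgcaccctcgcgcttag
Trib3, chr3:161275527-161275574, minus strand: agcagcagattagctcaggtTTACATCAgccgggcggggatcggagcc
The windows of Ddit3, Atf4 and Pdia4 held none of the elements searched. No member window held TGACGTGG, the element called UPRE (0.595% of all promoters), or the cAMP response element TGACGTCA (1.83%). A match describes the letters of these windows, and its absence says only that the letters are not there.

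The markers of cortical cell types were bright in every rat. The 5 neuronal markers averaged between 11.4 and 12.3 log2 units in each rat, the 5 astrocyte markers between 11.1 and 11.7, and the 4 measured oligodendrocyte markers between 11.9 and 12.5. Striatal neuron markers ran from 7.89 to 10.1 between rats, with group means of 9.21 to 9.57, and choroid plexus markers from 6.51 to 8.63. The arrays fell into groups that follow the replicate numbers of the labels and not the doses. The first principal component held 58.0% of the variance and the second 10.8%. On these components 24 arrays (vehicle replicates 1 to 6 and replicates 1 to 3 of each dose) stood apart from the other 36, and they are called array set 1 and array set 2. The study combined animals of a preliminary and a later cohort, exposed on separate days, and the sets have the sizes of these cohorts. The labels name no cohort, so whether the sets are the cohorts was not tested, and a difference of day, handling or array run between them cannot be told apart. Of set 1, 14 arrays lay above 20 on the first component, and of set 2, 0 did. Each set holds every group, so differences are also given within each.

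Signal is given with the share of all probe sets that were dimmer. Hspa5, the chaperone BiP that holds the sensors inactive, averaged 11.09 log2 units (96.4% dimmer). Hsp90b1, the lumenal chaperone GRP94, averaged 11.24 (97.0%). Calr, the lectin chaperone calreticulin, averaged 11.85 (98.5%), and Pdia4, a protein disulphide isomerase, 8.54 (72.6%). Among the transcription factors, Xbp1 averaged 10.69 (94.6%) and Atf4 11.21 (96.9%), while Ddit3, which encodes the pro-apoptotic factor CHOP, averaged 8.15 (66.5%). Atf3, an inducible factor of the ATF family, averaged 4.72 (6.57%), near the floor of the arrays. Herpud1, a membrane protein of the degradation machinery, averaged 8.73 (75.3%). Trib3, a pseudokinase induced by ATF4, averaged 6.06 (30.8%) by its brightest probe set.

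Rats of 1 group differed most in Hsp90b1, with an SD within groups of 0.34, wider than that of 84.0% of all probe sets. Pdia4 followed at 0.28, with Hspa5 and Herpud1 at 0.26 each. Atf3 at 0.12 and Atf4 at 0.13 varied least. The median SD within groups over the 12 member probe sets was 0.18, the same as over all probe sets (0.18). Between the array sets, set 1 minus set 2 was 0.29 for Pdia4, 0.27 for Hspa5, 0.25 for Calr and −0.09 for Atf3.

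**Figure D1:**
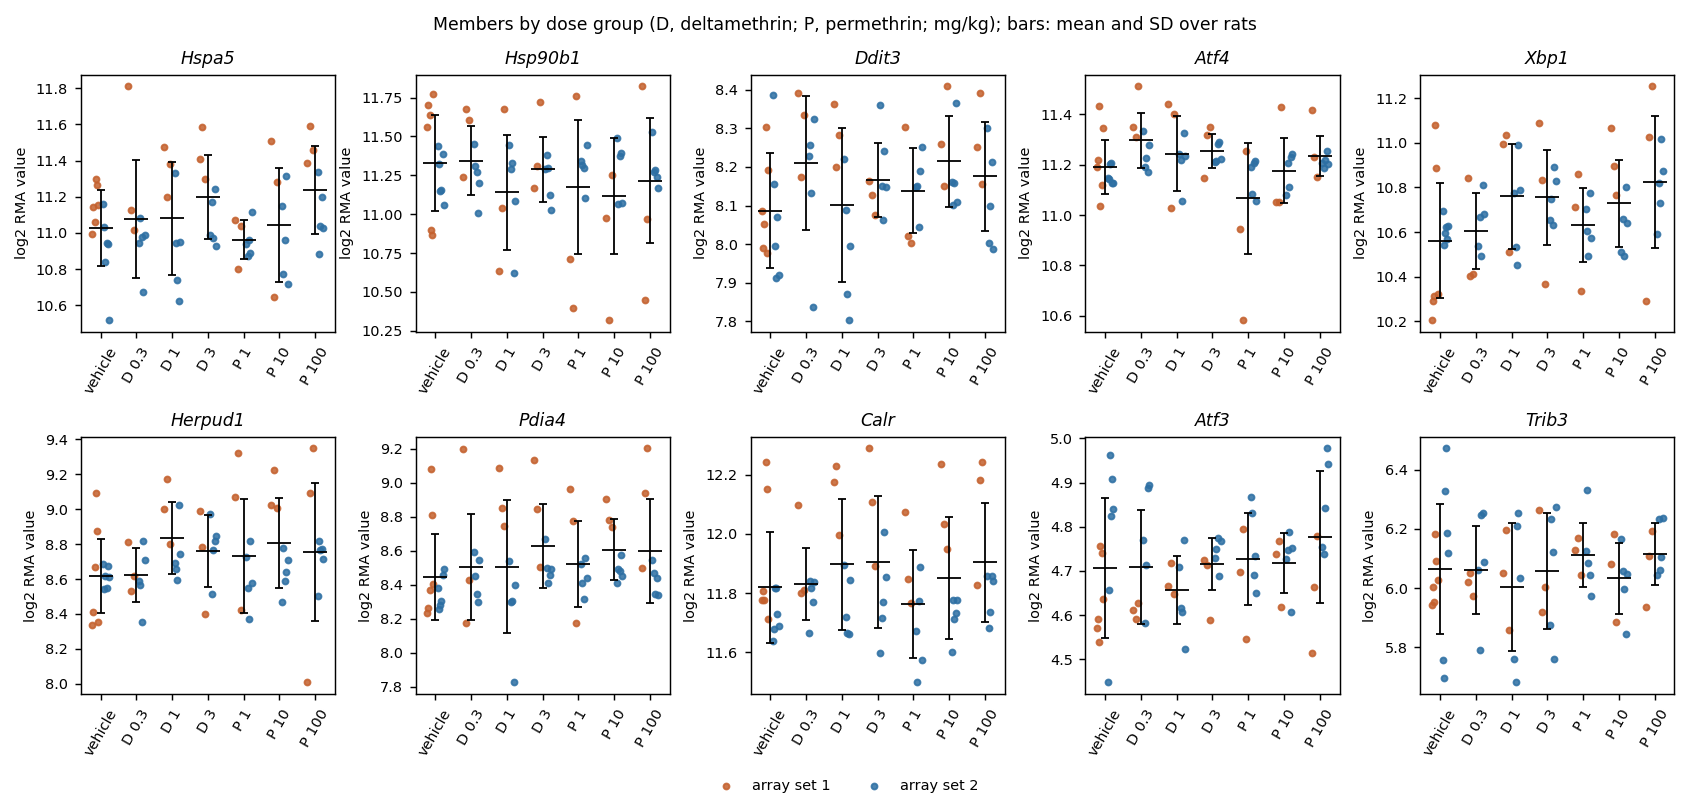
Log2 expression (y axis) of the 10 members in each rat by group (x axis, vehicle and then rising doses of deltamethrin and permethrin), by the brightest probe set of each gene. Points are rats, coloured by array set, and bars are means ± SD (n = 12 vehicle rats and 8 rats per dose); the groups overlap in every panel.

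None of the members differed from vehicle at any dose by limma once p-values were adjusted (Benjamini-Hochberg) across the 31042 probe sets. The lowest adjusted p of a member in the 6 dose comparisons and 4 compound comparisons was 0.961. No probe set of the whole table passed either, at adjusted p under 0.05, in any of these comparisons. Among the 72 comparisons of a member probe set with vehicle, 2 had an unadjusted p under 0.05. Over all probe sets the share was 0.751% to 3.48%, depending on the dose. No member had a dose group lying wholly apart from vehicle, which was not counted over all probe sets.

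At 100 mg/kg permethrin 1 of the 12 member probe sets had an unadjusted p under 0.05, against 1.24% of all probe sets, and it was Xbp1. Xbp1 ran from 10.29 to 11.25 with a median of 10.85 in permethrin rats, against 10.20 to 11.08 with a median of 10.58 in vehicle rats. Of 8 permethrin rats 7 lay above the vehicle mean, and the groups overlapped over most of their range. The means were 10.83 ± 0.30 with permethrin and 10.56 ± 0.26 with vehicle (SD), a difference of 0.26 on the log2 scale (SE 0.10, 95% interval 0.06 to 0.47, limma unadjusted p = 0.0125, adjusted p = 1.00). It was 0.34 within set 1 and 0.20 within set 2.

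Hspa5 was next in order at that dose. It ran from 10.88 to 11.59 with a median of 11.27 in permethrin rats, against 10.52 to 11.30 with a median of 11.05 in those given vehicle. Above the vehicle mean lay 6 of the 8 permethrin rats. The difference was 0.21 (SE 0.12, limma unadjusted p = 0.073), at 0.33 within set 1 and 0.19 within set 2. The other chaperones gave 0.15 for Pdia4, 0.08 for Calr and −0.11 for Hsp90b1, which took opposite signs in the array sets (−0.33 and 0.04). Herpud1 differed by 0.13. The PERK-side genes differed by 0.09 for Ddit3, 0.07 for Atf3, 0.05 for Trib3 and 0.04 for Atf4, all within their spread.

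At 3 mg/kg deltamethrin 0 of the 12 member probe sets had an unadjusted p under 0.05, against 1.36% of all probe sets. Xbp1 again gave the largest difference of the members. It ran from 10.37 to 11.09 with a median of 10.79 in deltamethrin rats, against the vehicle values given above, and 7 of 8 lay above the vehicle mean. The difference was 0.19 (SE 0.10, 95% interval −0.01 to 0.40, limma unadjusted p = 0.064), at 0.25 within set 1 and 0.14 within set 2.

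Pdia4 and Hspa5 stood close behind Xbp1. Pdia4 ran from 8.41 to 9.14 with a median of 8.50 in deltamethrin rats, against 8.23 to 9.08 with a median of 8.37 in vehicle rats, a difference of 0.18 (SE 0.13). Hspa5 ran from 10.93 to 11.59 with a median of 11.21 in deltamethrin rats, a difference of 0.17 from vehicle (SE 0.12, 95% interval −0.06 to 0.40). Only 5 of these 8 rats lay above the vehicle mean for Hspa5, against 7 of 8 for Pdia4. The 5 striatal neuron markers all lay above vehicle at this dose too, with a median difference of 0.14 and none past an unadjusted p of 0.05, and their part in these values was not tested. Herpud1 differed by 0.14, Ddit3 and Calr by 0.08 each, Atf4 by 0.06, Atf3 by 0.01, Trib3 by −0.01 and Hsp90b1 by −0.04.

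**Figure D2:**
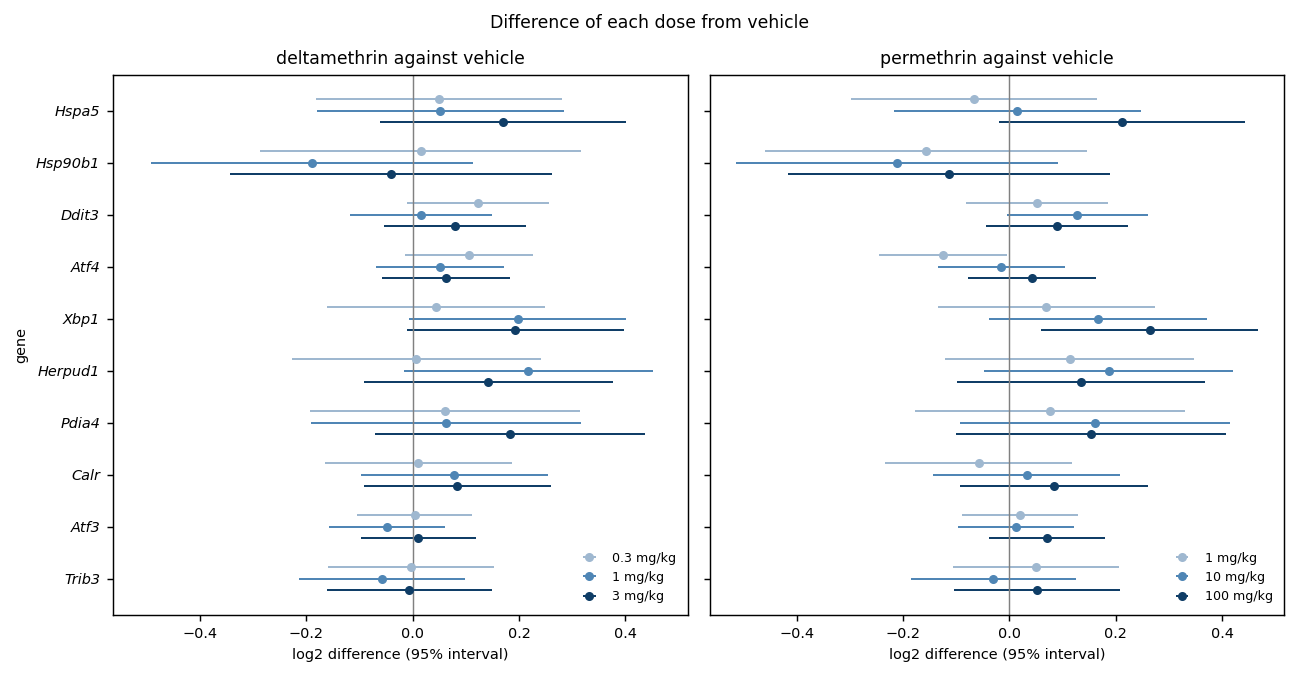
Log2 difference of each member from vehicle at each dose (points) with its 95% interval from limma (bars), 8 dosed rats against 12 vehicle rats. Xbp1 at 100 mg/kg permethrin (0.26) and Atf4 at 1 mg/kg permethrin (−0.12) are the points whose intervals do not reach 0, and neither passed adjustment over all probe sets.

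The lower doses did not follow the order of the highest ones. At 1 mg/kg deltamethrin Herpud1 ran from 8.60 to 9.17 with a median of 8.77, against 8.34 to 9.09 with a median of 8.62 in vehicle rats, a difference of 0.22 (limma unadjusted p = 0.068). Xbp1 differed by 0.20 there (limma unadjusted p = 0.058) and Hsp90b1 by −0.19. At 0.3 mg/kg deltamethrin Ddit3 differed by 0.12 and Atf4 by 0.10. Of the 5 striatal neuron markers 0 lay above vehicle at 0.3 mg/kg, with a median difference of −0.25 and 1 at an unadjusted p under 0.05. Their part in these values was not tested. No member had an unadjusted p under 0.05 at either dose, against 2.24% of all probe sets at 1 mg/kg and 0.751% at 0.3 mg/kg.

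Permethrin at 10 mg/kg gave Ddit3 values of 8.10 to 8.41 with a median of 8.16, against 7.91 to 8.39 with a median of 8.06 in vehicle rats. All 8 permethrin rats lay above the vehicle mean, yet the difference was 0.13 (limma unadjusted p = 0.060). Herpud1 differed by 0.19, Xbp1 by 0.17 and Hsp90b1 by −0.21 at that dose, and 0 members had an unadjusted p under 0.05, against 3.48% of all probe sets. At 1 mg/kg permethrin the single such member, against 1.18% of all probe sets, was Atf4. It ran from 10.58 to 11.26 with a median of 11.14 in permethrin rats, against 11.04 to 11.43 with a median of 11.17 in vehicle rats, a difference of −0.12 (SE 0.06, limma unadjusted p = 0.042). It was −0.30 within set 1 and −0.01 within set 2, and without replicate 2 of permethrin 1 mg/kg, the lowest rat, it was −0.06.

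The median difference of the 10 genes was 0.03 at 0.3 mg/kg, 0.05 at 1 mg/kg and 0.08 at 3 mg/kg deltamethrin, beside medians of −0.00, 0.01 and 0.01 over all genes. With permethrin it was 0.03 at 1 mg/kg, 0.02 at 10 mg/kg and 0.09 at 100 mg/kg, beside 0.01, 0.02 and 0.02 over all genes. Between single vehicle rats, the median deviation of the 10 genes from their vehicle means had an SD of 0.094. A trend of these medians with dose was not tested. At 3 mg/kg deltamethrin 8 of the 10 genes lay above vehicle, where 54.8% of all genes did. It was 9 at 0.3 mg/kg, where 48.8% did, and 7 at 1 mg/kg, where 54.5% did. With permethrin it was 6 at 1 mg/kg (53.8% of all genes), 7 at 10 mg/kg (59.3%) and 9 at 100 mg/kg (60.3%). The doses share their vehicle rats, so the counts for different doses are not independent of each other.

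Dose regression gave 0 members at an empirical p under 0.01 for either compound. With deltamethrin, 0.229% of all probe sets passed by SAM, a penalised linear regression, and 0.235% by PIR, a penalised isotonic one that asks only for a steady direction. With permethrin, 0.139% passed by SAM and 0.203% by PIR. The members nearest the threshold with permethrin were Hspa5 by SAM (empirical p = 0.0120) and Xbp1 by PIR (empirical p = 0.0128). With deltamethrin they were Xbp1 by SAM (empirical p = 0.0533) and Herpud1 by PIR (empirical p = 0.0670).

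The array set was then held constant as a block. Hspa5 differed from vehicle by 0.25 at 100 mg/kg permethrin (limma unadjusted p = 0.013) and Xbp1 by 0.27 (unadjusted p = 0.0115), the 2 member probe sets under 0.05 where 2.54% of all probe sets were. At 3 mg/kg deltamethrin Pdia4 differed by 0.22 (limma unadjusted p = 0.042) and Hspa5 by 0.21 (unadjusted p = 0.037), where 3.07% of all probe sets were under 0.05. At the lower doses 1 member probe set each came under 0.05 with the block. It was Herpud1 at 1 mg/kg deltamethrin (0.24, limma unadjusted p = 0.040, 6.26% of all probe sets), and Ddit3 at 0.3 mg/kg deltamethrin (0.13, unadjusted p = 0.044, 1.5%) and at 10 mg/kg permethrin (0.14, unadjusted p = 0.037, 9.65%). At 1 mg/kg permethrin it was again Atf4 (−0.12, limma unadjusted p = 0.048, 3.18%). With the first component as a covariate too, a choice made after the data were seen, Xbp1 differed by 0.17 with permethrin (limma unadjusted p = 0.0027) and 0.14 with deltamethrin (unadjusted p = 0.013). Hspa5 differed by 0.26 with permethrin (limma unadjusted p = 0.0096) and 0.21 with deltamethrin (unadjusted p = 0.030), and Pdia4 by 0.18 with deltamethrin (unadjusted p = 0.038). That made 2 member probe sets with permethrin, against 3.62% of all, and 3 with deltamethrin, against 6.88%. No member passed at adjusted p under 0.05 in these fits.

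The 2 pyrethroids differ, among other things, in an α-cyano group that deltamethrin carries and permethrin lacks. They were compared at 4 pairs of doses, which made 48 comparisons over the 12 member probe sets, with p-values adjusted over all 31042 probe sets. No difference passed. At an unadjusted p under 0.05 by limma, 0 of 12 member probe sets differed for deltamethrin 3 against permethrin 100 mg/kg (0.802% of all probe sets) and for 1 against 10 mg/kg (1.02%), and 1 of 12 for 0.3 against 1 mg/kg (2.41%) and for 1 against 1 mg/kg (2.73%). The highest dose of each, deltamethrin at 3 mg/kg and permethrin at 100 mg/kg, are not equal in mg/kg and were not set to be equal in effect, and every member differed between them by at most 0.07 in either direction. For Xbp1 the difference was −0.07 (95% interval −0.29 to 0.15), for Hspa5 −0.04 (−0.29 to 0.21) and for Calr 0.00 (−0.19 to 0.19). A p that misses the threshold does not show that the compounds act alike. The intervals of these 3 genes reach past the size of their differences from vehicle.

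Atf4, the factor translated when eIF2α is phosphorylated, was the member with an unadjusted p under 0.05 between the compounds. It ran from 11.17 to 11.51 with a median of 11.29 at 0.3 mg/kg deltamethrin, against 10.58 to 11.26 with a median of 11.14 at 1 mg/kg permethrin. The groups overlapped, though all 8 deltamethrin rats lay above the permethrin mean. The difference was 0.23 (SE 0.07, 95% interval 0.10 to 0.36, limma adjusted p = 0.98), at 0.46 within set 1 and 0.09 within set 2. At the shared dose of 1 mg/kg it was 0.18 (95% interval 0.05 to 0.31, limma adjusted p = 1.00). Without replicate 2 of permethrin 1 mg/kg these differences were 0.16 and 0.11.

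Rats of 1 group were then compared among themselves, to see which members vary together. The means of the dose groups were removed, and Hspa5 was set against each of the 9 other genes within each array set, which made 18 relations with permutation p-values adjusted over them. The arrays of set 1 fall into separate ranges of the first component. The relations of both sets were tested with that component left in, and values with it removed are given further on. In the 36 rats of set 2, Hspa5 and Ddit3 had r = 0.77 and rho = 0.75 (permutation p = 1e-05 for each, the smallest the permutations can give, adjusted 0.00018), and r = 0.74 without the 2 rats farthest from the median of Hspa5. Hspa5 and Hsp90b1 had r = 0.70 and rho = 0.63 (permutation p = 9e-05 and 0.00038, adjusted 0.00081 and 0.0034), and 0.65 without those rats. Trib3 ran the other way, with r = −0.54 and rho = −0.55 (permutation p = 0.00264 and 0.00154, adjusted 0.0158 and 0.00924), and −0.54 without them. The other 6 relations of set 2 did not pass, among them Herpud1 with r = −0.42 (permutation adjusted p = 0.0516). None of the 9 of set 1 passed, where r was 0.47 with Ddit3, −0.05 with Hsp90b1 and −0.13 with Trib3. The share of all genes that run as closely with Hspa5 in set 2 was not counted, so these relations are not shown to be particular to the members.

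**Figure D3:**
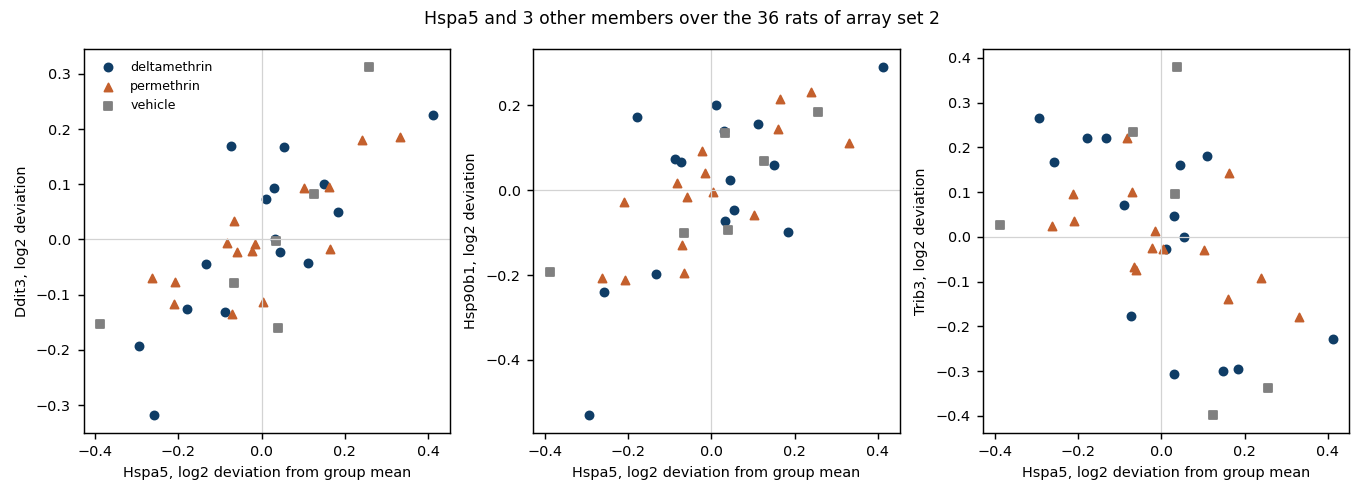
Log2 deviation of Hspa5 from its dose group mean (x axis) against that of Ddit3, Hsp90b1 and Trib3 (y axes) in the 36 rats of array set 2, each point a rat. Hspa5 runs upward with Ddit3 (r = 0.77) and Hsp90b1 (r = 0.70) and downward with Trib3 (r = −0.54).

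The first component moved with many members. Over all 60 rats Hsp90b1 had r = −0.95 with it, Xbp1 0.86, Herpud1 0.85, Calr 0.69 and Pdia4 0.64, against −0.04 for Hspa5 and −0.06 for Ddit3. The sets differed in this. Pdia4 had r = 0.87 with it in set 1 and −0.48 in set 2, and Atf4 −0.68 and 0.43, while Hspa5 and Ddit3 had −0.60 each in set 2. Hsp90b1, Xbp1, Herpud1, Calr, Atf3 and Trib3 had the same sign in both sets. Over all probe sets 58.4% had an r with it larger than 0.5 in size, so the members were not alone in this. What the component stands for was not tested. With it removed, a description with no test, Hspa5 had r = 0.64 with Ddit3, 0.47 with Hsp90b1 and −0.30 with Trib3 in set 2, and 0.45, 0.45 and −0.37 in set 1. Hspa5 also had r = 0.49 with Xbp1 in each set by that measure, where without the removal it was −0.05 in set 2.

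Over all 45 pairs of members, with the component removed, 28 had the same sign in both sets, where 58.3% of all pairs of genes did by the same measure. In 11 of the 45 pairs r was above 0.3 in both sets, where it was in 6.68% of all pairs of genes, among them Hspa5 with each of Hsp90b1, Ddit3, Atf4, Xbp1 and Calr. Xbp1 and Herpud1 had 0.38 in set 1 and 0.51 in set 2, and Ddit3 and Atf4 0.51 and 0.45. Trib3 was below −0.3 in both sets with Ddit3, Atf4 and Hspa5, the 3 pairs of that kind, where 5.02% of all pairs of genes were. Pairs share genes and rats, so these shares are a description. The 3 probe sets of Trib3 had r of 0.81, 0.70 and 0.69 with each other over rats.

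**Figure D4:**
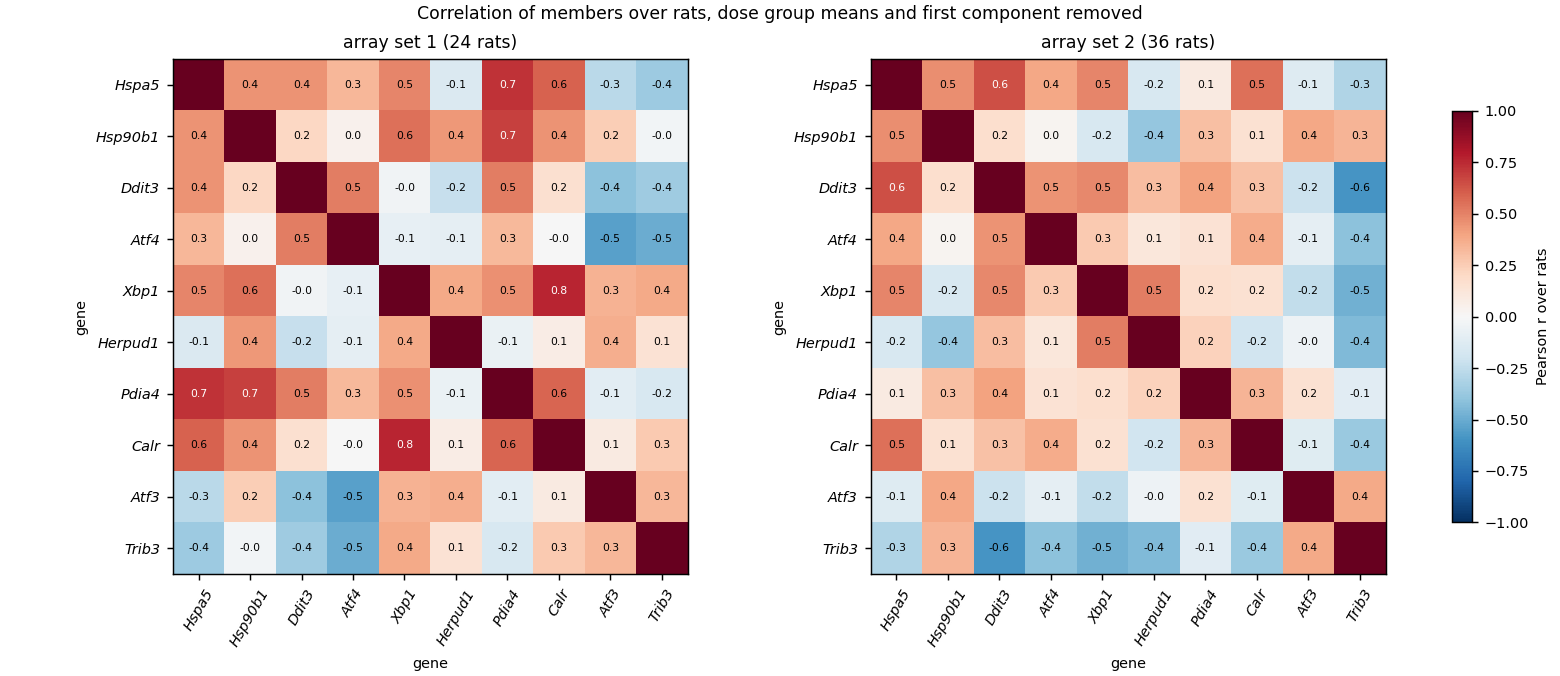
Pearson r between the 10 members across rats within array set 1 (24 rats) and array set 2 (36 rats), after removal of dose group means and of the first principal component; colour runs from −1 to 1. Hspa5 is positive with Hsp90b1, Ddit3, Atf4, Xbp1 and Calr in both sets, and Trib3 is negative with Hspa5, Ddit3 and Atf4.

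The genes around the members in the same response were counted by role, 78 measured genes outside the 10. At adjusted p under 0.05 by limma 0 of them differed from vehicle at any dose. At 3 mg/kg deltamethrin 58 of 78 lay above vehicle (54.8% of all genes did) with a median difference of 0.06, and 1 had an unadjusted p under 0.05, near the share over all probe sets. At 100 mg/kg permethrin 46 lay above vehicle (60.3% of all genes did) with a median of 0.02, and 0 had such a p (1.24% of all probe sets). The middle permethrin dose, 10 mg/kg, had 56 above vehicle (59.3% of all genes) with a median of 0.08. There 3 had such a p, near the share of 3.48% over all probe sets. At 1 mg/kg deltamethrin 52 lay above vehicle (54.5% of all genes) with a median of 0.07, and 0 had such a p (2.24% of all probe sets). The lists were chosen with results of these data known, and their counts are descriptions.

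Chaperones and co-chaperones of the endoplasmic reticulum lay above vehicle in 12 of 14 genes at 3 mg/kg deltamethrin (median 0.08) and in 10 of 14 at 100 mg/kg permethrin (median 0.08). Among them Dnajb11, a co-chaperone of BiP, differed by 0.11 with deltamethrin and 0.10 with permethrin, and Manf, a secreted protein of the stressed reticulum, by 0.12 and 0.16. Genes of oxidative folding lay above vehicle in 7 of 8 with deltamethrin (median 0.10) and 4 of 8 with permethrin (median 0.03), with the disulphide isomerase Pdia6 at 0.08 and 0.11. The degradation genes gave 10 of 13 (median 0.07) and 8 of 13 (median 0.01), and 11 of 13 at 10 mg/kg permethrin (median 0.11). Sel1l, an adaptor of the degradation ligase, gave −0.08 and −0.12. Of the PERK and ATF4 targets, 17 of 24 lay above vehicle with deltamethrin (median 0.06) and 16 of 24 with permethrin (median 0.04), among them the amino acid transporter genes Slc7a5, at 0.31 and 0.30, and Slc3a2, at 0.17 and 0.16. The gene of that list with the lowest p at 100 mg/kg permethrin was the lipoprotein receptor Vldlr, at −0.23, and the cystine transporter gene Slc7a11 gave −0.10 with deltamethrin and −0.23 with permethrin (named after its values were seen). The list of sensors gave 3 of 5 and 1 of 5. It held Eif2ak3 (PERK), Atf6, Atf6b and the proteases that cleave ATF6, Mbtps1 and Mbtps2. Ern1, the gene of IRE1, was listed but not measured. None of the genes named here passed adjustment.

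The gene with an unadjusted p under 0.05 at 3 mg/kg deltamethrin was Hyou1, a large chaperone that acts beside BiP and whose RefSeq promoter window also holds an ERSE-II. It averaged 9.59 ± 0.22 in deltamethrin rats and 8.94 ± 0.75 in vehicle rats (SD), a difference of 0.65 (SE 0.30, limma unadjusted p = 0.033, adjusted p = 1.00), with 8 of 8 deltamethrin rats above the vehicle mean. The difference lay within set 1, where the means were 9.82 with deltamethrin and 8.38 with vehicle. Within set 2 they were 9.45 and 9.49. The difference in set 2 minus that in set 1 was −1.48 (limma unadjusted p = 0.00258, adjusted p = 1.00).

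**Figure D5:**
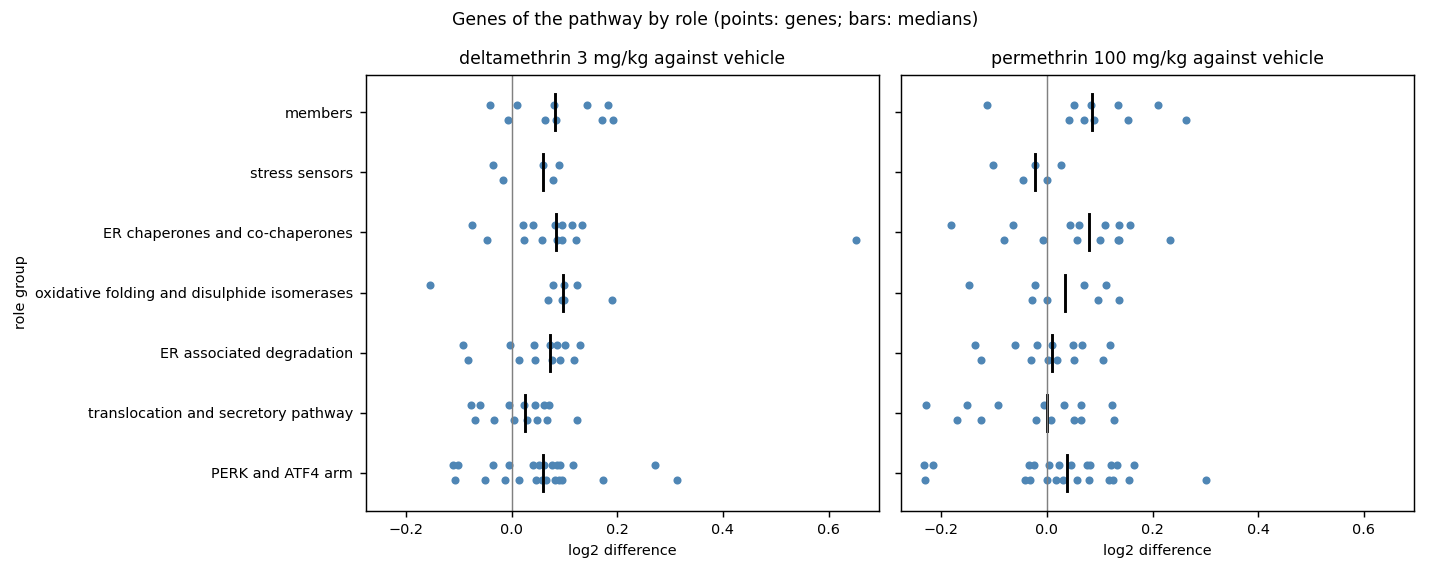
Log2 difference from vehicle (x axis) of the genes of each role in the stress response (y axis) for deltamethrin at 3 mg/kg and permethrin at 100 mg/kg, each point a gene and each bar the median of its list. Chaperones have a median of 0.08 at both doses, and Hyou1 is the highest chaperone with deltamethrin at 0.65.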

How the data were processed

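The values were log2 expression summaries that the authors made from Affymetrix rat arrays by RMA (background correction, quantile normalization and probe set summary) and deposited as a series matrix. The number of arrays limits the precision. Genes were named from the platform annotation: 20826 of 31042 probe sets had 1 symbol, 436 several and 9780 none. Each dose was compared with vehicle, and the compounds with each other, by limma 3.58.1 in R 4.3.3, in 1 fit of 60 arrays and 7 groups, with p-values adjusted (Benjamini-Hochberg) across the whole table and a threshold of 0.05. SAM and PIR were written anew after the methods of the study, with 100 permutations of the dose labels pooled over probe sets. Relations used 100000 permutations within dose groups. A gene with several probe sets was represented by the brightest. Scripts ran under Python 3.11.15 with numpy 2.4.6, pandas 2.3.3 and scipy 1.17.1, and were tested on simulated data. Pathway genes were named as the members of each list with the lowest p at the highest doses, at most 4 per list, and those printed are a part of these. The members and lists were chosen with earlier results of these data known. Alternatives covered the replicate number, array set and first component in the model, the scale, centring, a filter on dim probe sets, the variance prior and each array left out. No 2 arrays were identical. That the rats were separate animals is given by the labels, and p-values measure the spread between them. Protein sequences were not used here.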

Additional observations from a re-analysis of the deposited data

Results flagged for a closer look

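In all, 8 values of the member probe sets stood far from the rest of their dose group, judged by the gap to the nearest rat as a share of the range of the group (above the Dixon critical value at 95%). Chance flags about 1 in 20 groups, and 72 were tested. Replicate 1 of deltamethrin 0.3 mg/kg was the highest rat of its group in 3 chaperones, with Hspa5 at 11.81 (next rat 11.13), Pdia4 at 9.20 (8.59) and Calr at 12.10 (11.84). Hsp90b1 was lowest in replicate 2 of permethrin 10 mg/kg at 10.32 (10.98). Atf4 was lowest in replicate 2 of permethrin 1 mg/kg at 10.58 (10.94) and highest in replicate 1 of permethrin 100 mg/kg at 11.42 (11.25). Ddit3 was lowest in replicate 7 of deltamethrin 0.3 mg/kg at 7.84 (8.13), and Atf3 lowest in replicate 3 of deltamethrin 3 mg/kg at 4.59 (4.69). Of the 8 rats' values, 7 came from array set 1, and the part of the array set in them was not tested.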

How the results depend on the processing

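No member passed at adjusted p under 0.05 in any alternative fit. Over all probe sets the count at 3 mg/kg deltamethrin was 0, and became 3 with the array set as a block, 5 with the first component, 11 with both, 2 on linear values, 1 with arrays centred, 1 among the brighter probe sets, 4 without the arrays above 20 on that component, and 0 to 2 leaving out each array. It became 1 at 1 mg/kg deltamethrin with the first component, 1 at 100 mg/kg permethrin and 1 between the highest doses with both terms and without those arrays, 1 for deltamethrin 1 against permethrin 1 mg/kg with both terms, and 1 for deltamethrin 0.3 against permethrin 1 mg/kg within set 1. Adding both terms, and leaving out those arrays, were chosen after seeing the data. In dose regression, deltamethrin SAM gave 133 probe sets on the rank of the dose (71 in mg/kg), permethrin PIR 109 on linear values (63), and permethrin SAM 87 on linear values and 143 on ranks (43), with 2 members on linear values (Hspa5 and Xbp1) and 1 on ranks (Xbp1). Of the Hspa5 relations 0 passed within set 1 (3 in set 2), and that with Hsp90b1 was −0.049 there before the first component was removed and 0.45 after. The median of the 10 genes at 1 mg/kg deltamethrin was 0.19 within set 1 (0.05 over all arrays). Hsp90b1 turned to 0.039 with both terms and 0.045 within set 2 at 100 mg/kg permethrin, and at 3 mg/kg deltamethrin to 0.049 with both terms and −0.10 to 0.00019 leaving out each array (0.00019 without vehicle replicate 6). Leaving out each array, Xbp1 stayed between 0.20 and 0.34 at 100 mg/kg permethrin and 0.14 and 0.25 at 3 mg/kg deltamethrin. The cause of these changes was not tested.

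The replicate numbers were not taken as pairs: same-numbered rats correlated from −0.82 to 0.79 in their deviations, and 7 of 48 correlated best with their own number. The replicate number was also used as a block. At 100 mg/kg permethrin 3 member probe sets then had an unadjusted p under 0.05 by limma, against 6.24% of all probe sets. Xbp1 was 0.28 (limma unadjusted p = 0.0136). Atf3, near the floor of the arrays, was 0.16 (limma unadjusted p = 0.0032, 0.07 without the block). The other was a dimmer probe set of Trib3. Hspa5 was not among them, at 0.10 (limma unadjusted p = 0.355, 0.21 without the block). At 3 mg/kg deltamethrin Hspa5 was 0.06 (0.17 without the block), and 0 members passed at adjusted p under 0.05. Vehicle replicates 4 to 6 belong to array set 1 and dosed replicates 4 to 6 to set 2. For these numbers the block sets rats of different array sets side by side. Hspa5 was 0.27 higher in set 1 than in set 2. With the array set as the block it differed from vehicle by 0.25 at 100 mg/kg permethrin and 0.21 at 3 mg/kg deltamethrin. The part of this mismatch in the values was not tested.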

Other observations

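The genes whose levels ran closest with Hspa5 over the 60 rats, after removal of the means of dose groups and array sets, were Stip1 (r = 0.76), Psmc1 (0.75), Cdc123 (0.72), Aimp1 (0.72) and Zfp830 (0.72), of 14216 genes compared. Phax and Rars1 (0.71 each), Ppp2r2d and Ebna1bp2 (0.70 each) and Lrpap1 (0.69) completed the closest 10. Stip1 encodes a co-chaperone of the cytosolic HSP70 and HSP90, Psmc1 an ATPase of the proteasome, Rars1 an arginyl-tRNA synthetase and Aimp1 a scaffold of the synthetase complex. These correlations are a description of rats that share the array sets and carry no p.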
